A study of Mus musculus with 4 samples.

Results

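*Prg4*-high cells were defined as called cells in which *Prg4* made up at least 1% of the unique molecular identifiers (UMIs, 1 per captured RNA molecule) and *Ptprc*, the pan-leukocyte gene encoding CD45, had none. There were 198 such cells among 9795 called cells. The ablated (ABL) library of replicate 2 held 196 of them, the ABL library of replicate 1 held 2, and neither contralateral (CONT) library held any. *Prg4* and *Ptprc* chose the cells, so their levels are a description. No comparison here has a test, because nearly all of the cells came from 1 library and cells of 1 library are not replicates.

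The study compared femurs in which the marrow had been mechanically ablated with the unoperated contralateral femurs of Cxcl12-iCreER; R26R(tdTomato/+) mice, in 2 biological replicates and 4 libraries. Tamoxifen was given 7 days before the operation and cells were taken 7 days after it. All 4 libraries came from femurs that carried both transgenes and received tamoxifen, so the recombined cells and their descendants were labelled with tdTomato, and the labelled cells were sorted. The creER is expressed from a bacterial artificial chromosome carrying *Cxcl12* sequence, replicate 1 was pooled from several mice, and the 10x Chromium version was 2 in replicate 1 and 3 in replicate 2. The operation reached the marrow through the knee, and the ends of the bone were trimmed before digestion.

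Lubricin, the mucin-like glycoprotein encoded by *Prg4*, coats joint surfaces and lowers their friction. It is made by lining fibroblasts of the synovium and by chondrocytes of the superficial zone of articular cartilage, and also in tendon. Lining fibroblasts secrete hyaluronan as well, the other main lubricant of joint fluid. *Cilp* and *Cytl1* encode secreted proteins of cartilage.

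The 4 matrices held 28006 features each. They summed to 44784072 UMIs (CONT) and 22889380 (ABL) for replicate 1, and 40486876 (CONT) and 41536563 (ABL) for replicate 2. Called cells numbered 3419, 1438, 2397 and 2541 in the same order. *Prg4*-high cells made up 7.71% of the called cells of ABL replicate 2 (95% exact Clopper-Pearson interval 6.71 to 8.82%) and 0.139% of those of ABL replicate 1 (0.0168 to 0.502%). The count of 0, taken as fewer than 3 cells, allowed a share of up to 0.0877% in CONT replicate 1 and 0.125% in CONT replicate 2, and the exact Clopper-Pearson upper limits were 0.108 and 0.154%. All intervals given here cover counting error only. The ABL share exceeded the CONT share by 7.71 percentage points in replicate 2 and by 0.139 points in replicate 1, and replicate cannot be told apart from Chromium version. In a sorted suspension, more cells of a kind and better release of them from the tissue cannot be told apart.

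The 2 libraries of replicate 2 also disagreed in sex-linked genes. *Xist*, the RNA that silences an X chromosome in females, was measured in CPM, counts scaled to a total of 1000000 UMIs. In other mesenchymal cells it stood at 565 CPM (CONT) and 809 CPM (ABL) in replicate 1, and at 797 CPM (CONT) and 0.0933 CPM (ABL) in replicate 2. It had no UMI in the 196 *Prg4*-high cells of ABL replicate 2. *Ddx3y*, a Y-linked helicase gene, was detected in other mesenchymal cells of all 4 libraries, at 52.4, 14.4, 37.0 and 62.7 CPM in the same order, and at 55.5 CPM in the *Prg4*-high cells. In CONT replicate 2, *Xist* had a UMI in 1400 of 1956 other mesenchymal cells. In ABL replicate 2 it had one in 1 of 1564 such cells and in 0 of 435 hematopoietic-gate cells. For the share of *Prg4*-high cells, a difference between the mice behind the replicate 2 libraries and an effect of the operation cannot be told apart. Called cells of CONT and ABL replicate 2 shared 1 barcode, where random draws would give 0.896. Those of replicate 1 shared 5, where random draws would give 6.67. No barcode of a *Prg4*-high cell was shared, which says little where so few are shared at all.

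*Prg4* was present at low level outside these cells. In ABL replicate 2 the summed UMIs gave 62198 CPM in *Prg4*-high cells (95% exact Poisson interval 61927 to 62470), 406 CPM in other mesenchymal cells and 37.8 CPM in hematopoietic-gate cells. Droplets with at most 300 UMIs, which hold mostly free RNA, gave 3280 CPM, above the level of either other class of cells. A *Prg4* UMI was found in 51.9% of other mesenchymal cells and in 22.5% of hematopoietic-gate cells, so low *Prg4* counts in this library could not be read as expression. In other mesenchymal cells of the remaining libraries *Prg4* was at 5.75 CPM (CONT) and 15.4 CPM (ABL) in replicate 1 and at 8.21 CPM in the contralateral library of replicate 2. *Prg4*-high cells held 94.7% of all *Prg4* UMIs in called cells of ABL replicate 2.

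**Figure D1:**
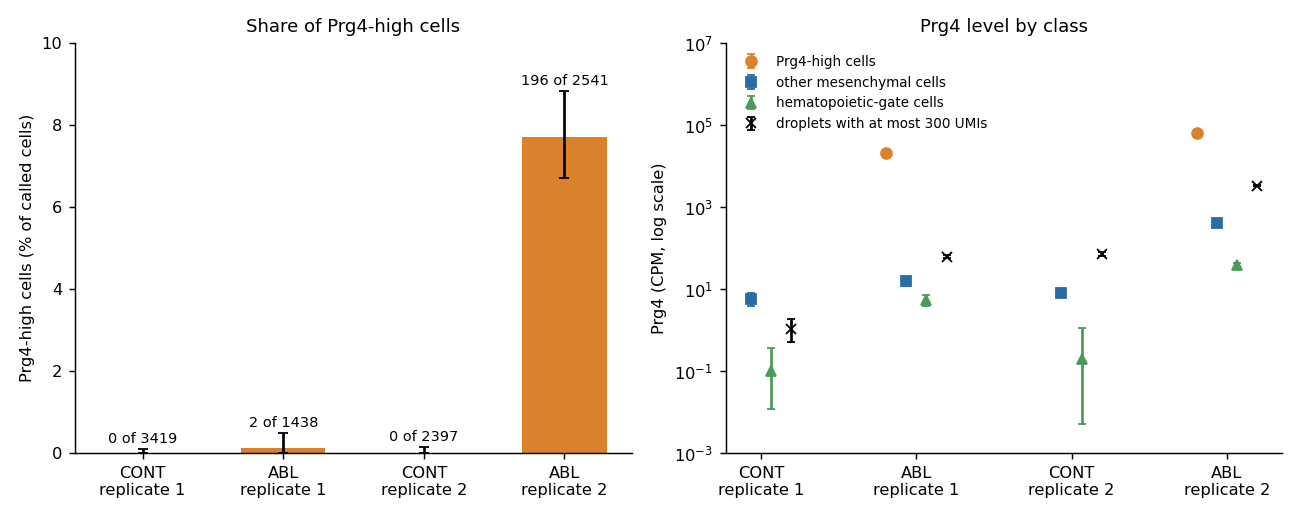
Left, bars of the share of called cells that were *Prg4*-high in each library, with 95% exact Clopper-Pearson intervals. Right, *Prg4* level in CPM on a log scale with 95% exact Poisson intervals, by class of cells and in droplets of at most 300 UMIs. The share is 7.71% in ABL replicate 2 and 0.139% in ABL replicate 1, and the droplets of ABL replicate 2 reach 3280 CPM.

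Within ABL replicate 2 the share of UMIs taken by *Prg4* ran from 1.03 to 17.5% over the 196 cells, with a median of 5.58%. There were 20 cells between 1 and 2%, 47 between 2 and 4% and 129 at 4% or more. The 3 cells just inside the threshold stood at 1.03, 1.03 and 1.04%, and the 3 just outside at 0.888, 0.955 and 0.978%. In all, 7 cells lay between 0.8 and 1%. Of the 196 cells, 190 lay in the mesenchymal gate, in which at least 1% of a cell's UMIs came from a list of mesenchymal genes and more than from the hematopoietic or endothelial lists. They were 10.8% of that gate's cells (9.42 to 12.4%). Median depth was 16119 UMIs in *Prg4*-high cells and 12368 in the 1564 other mesenchymal cells, with 5.38 and 5.13% mitochondrial UMIs.

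The named markers other than *Prg4* did not describe most of these cells. *Cilp* was detected in 25 of 196 cells (12.8%) and *Cytl1* in 16 (8.16%), with 13 holding both. Of other mesenchymal cells, 21.9% held a *Cilp* UMI and 2.94% a *Cytl1* UMI. Genes of the synovial lining were far more frequent. *Clic5*, which encodes a chloride intracellular channel protein, had a UMI in 162 cells (82.7%), and *Tspan15*, a tetraspanin that partners the protease ADAM10, in 148 (75.5%). In other mesenchymal cells these shares were 1.98% and 1.79%. The cells are therefore called *Prg4*-high cells here, after the rule.

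Among 5356 genes with a mean CPM of at least 20 over the 2 classes, *Prg4* left out, 295 were at least 2-fold higher in *Prg4*-high cells than in other mesenchymal cells (5.51% of genes) and 434 at least 2-fold lower (8.1%). The median log2 ratio over all of them was 0.03. Of 12 genes of the synovial lining list, 10 were higher, *Vcam1* was lower and *Pdpn* lay within 2-fold, with a median log2 ratio of 4.20. The list was drawn up with earlier results of these data known, as were all lists here.

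*Clic5* (chr17:44188584-44280172, GRCm38) gave 1220 CPM in *Prg4*-high cells and 2.10 CPM in other mesenchymal cells, a 581-fold ratio (434 to 798). It ranged from 0 to 117 UMIs a cell with a median of 12. *Tspan15* (chr10:62185396-62231251) gave 320 against 2.19 CPM, a 146-fold ratio (109 to 200). *Htra4* (chr8:25024929-25038962), which encodes a secreted serine protease, gave 158 against 1.59 CPM, a 99.5-fold ratio (70.3 to 145). *Prg4*-high cells, 7.71% of the called cells of the library, held 96.8% of the *Clic5*, 86.9% of the *Tspan15* and 92.9% of the *Htra4* UMIs of its called cells. These 3 genes were not used to choose the cells, but they come from the same cells and the same library as *Prg4*.

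The rest of the lining list spanned smaller ratios. *Col22a1*, a collagen of tissue junctions, stood at 732 against 25.8 CPM (28.3-fold, 25.8 to 31.1). *Hbegf*, a ligand of the EGF receptor, was detected in 185 of 196 cells and stood at 2729 against 71.3 CPM (38.3-fold, 36.2 to 40.4). *Has1*, a hyaluronan synthase, stood at 1223 against 168 CPM (7.27-fold, 6.94 to 7.60), and was detected in 180 cells. The integrin subunits *Itga6* (136 against 7.55 CPM) and *Itgb8* (58.6 against 3.12 CPM), the complement regulator *Cd55* (303 against 38.2 CPM) and the transcription factor *Creb5* (525 against 114 CPM) were also higher. *Vcam1*, an adhesion molecule, was 2.26-fold lower at 97.4 against 220 CPM, with a log2 ratio of 0.046 when reticular-gate cells were left out of the comparison cells.

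Promoter sequence was taken from RefSeq (GRCm38.p6) as the 250 bases before the start that RefSeq gives for each gene, 5′ to 3′ on the strand of the gene, for 7 of the 12 lining genes and for *Cytl1* and *Cilp*. Matches to TGACGTCA, the cAMP response element that CREB-family factors recognize, and to TGANTCA, the AP-1 element, were searched on both strands, and the shorter TGACG lies inside the former. *Has1* and *Creb5* are shown because both hold TGACGTCA, *Tspan15* because it holds the AP-1 element, and *Cytl1* because it holds none of these and marks the other set of cells described further on. Capitals mark the match. *Tspan15* is read from chr10:62231219-62231468 on the minus strand, *Has1* from chr17:17855189-17855438 on the minus strand, the first *Creb5* start from chr6:53287053-53287302 on the plus strand, and *Cytl1* from chr5:37735269-37735518 on the plus strand. The gene spans of the annotation used for the coordinates above reach further than these starts, so 33 bases of the *Tspan15* window, 17 of the *Has1* window and 33 of the first *Creb5* window lie inside the gene span. The AP-1 match of *Tspan15* is among those bases.
Tspan15: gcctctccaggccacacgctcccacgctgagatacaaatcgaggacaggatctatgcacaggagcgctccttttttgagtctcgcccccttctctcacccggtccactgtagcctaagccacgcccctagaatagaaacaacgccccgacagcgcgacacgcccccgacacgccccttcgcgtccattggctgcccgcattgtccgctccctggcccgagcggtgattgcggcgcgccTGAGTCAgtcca
Has1: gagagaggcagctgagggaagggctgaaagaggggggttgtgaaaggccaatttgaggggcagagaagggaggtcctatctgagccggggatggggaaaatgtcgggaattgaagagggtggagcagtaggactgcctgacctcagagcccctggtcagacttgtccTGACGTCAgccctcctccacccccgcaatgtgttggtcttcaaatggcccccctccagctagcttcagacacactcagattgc
Creb5: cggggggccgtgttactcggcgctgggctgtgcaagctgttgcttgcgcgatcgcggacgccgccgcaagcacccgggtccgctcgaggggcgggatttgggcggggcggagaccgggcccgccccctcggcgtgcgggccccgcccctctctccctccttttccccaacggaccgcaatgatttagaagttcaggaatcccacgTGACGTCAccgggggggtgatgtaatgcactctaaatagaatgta
Cytl1: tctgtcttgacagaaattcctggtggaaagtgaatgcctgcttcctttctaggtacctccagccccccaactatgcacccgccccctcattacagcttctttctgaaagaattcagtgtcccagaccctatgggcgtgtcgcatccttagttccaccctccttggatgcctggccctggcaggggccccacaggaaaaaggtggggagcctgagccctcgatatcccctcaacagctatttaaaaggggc

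The TGACGTCA match began at position -83 from the start in *Has1* and at -45 in *Creb5*, and the TGAGTCA match at -12 in *Tspan15*. The second *Creb5* start held TGACTCA at position -45, and the *Cilp* window held no match. With every start of a gene searched, TGACGTCA was found in 2 of the 7 lining genes and in 1.77% of 27025 genes, and TGANTCA in 2 of the 7, *Creb5* and *Tspan15*, and in 7.82% of all. The forkhead element TGTTTAC was found in 1 of the 7, *Pdpn*, and in 3.54% of all. The shorter TGACG was found in 3 of the 7 and in 19.8% of all. Of the 25 genes with the highest ratios at a mean CPM of at least 50, 15 had a promoter. With the first start of each searched, 1 held TGACGTCA, *Areg*, and 2 held TGANTCA, *Fgl2* and *Tspan15*. Of all 32851 promoters, each start counted on its own, 1.55% held TGACGTCA and 6.75% held TGANTCA. Of 7 genes of the superficial cartilage list with a promoter, every start searched, 1 held TGACGTCA, which was *Creb5* again. TGANTCA was found in 2, *Creb5* and *Tnxb*, and TGTTTAC in none. These are matches of letters in a window and are not shown to be bound in these cells.

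Other genes among the 25 highest ratios had varied roles. *F13a1*, the catalytic subunit of coagulation factor XIII, stood at 1660 against 17.2 CPM (96.5-fold, 86.8 to 107). *Pla1a*, a phospholipase, stood at 439 against 5.41 CPM, *Sema3a*, an axon guidance ligand, at 276 against 5.78 CPM, and *Calcrl*, the receptor of CGRP and adrenomedullin, at 145 against 3.40 CPM. *Sparcl1* (984 against 31.2 CPM), the proprotein convertase *Pcsk6* (502 against 16.6 CPM), the retinoic acid synthetic enzyme *Aldh1a3* (114 against 9.05 CPM) and *Cystm1* (277 against 3.59 CPM) were higher as well. Together with *Hbegf*, the EGF receptor ligands *Areg* (134 against 0.933 CPM) and *Ereg* (169 against 3.82 CPM) were among the 25 highest genes.

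Some of these levels rested on few cells. *Areg* was detected in 54 of 196 cells, and 10 cells held 73.5% of its UMIs. *Cxcl2*, a neutrophil chemoattractant (334 against 25.1 CPM), was detected in 50 cells, with 64.6% of its UMIs in 10. *Ereg* was found in 87 cells and the protease inhibitor *Slpi* (686 against 23.3 CPM) in 84. The haemoglobin genes *Hba-a1*, *Hba-a2*, *Hbb-bs* and *Hbb-bt* entered the 25 highest through 1 cell, in which 9482 haemoglobin UMIs made up 44.9% of the total. Without cells of at least 1% haemoglobin the log2 ratio was -0.58 for *Hbb-bs*, -1.19 for *Hba-a2*, -1.04 for *Hba-a1* and -0.64 for *Hbb-bt*.

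Lubrication and hyaluronan genes were uneven. Of 10 that passed the level filter, 3 were higher, 2 lower and 5 within 2-fold, with a median log2 ratio of 0.65. Besides *Has1*, *Ugp2*, which supplies UDP-glucose (936 against 125 CPM), and *Tnfaip6*, which links heavy chains to hyaluronan (1341 against 341 CPM), were higher. *Has2* (8.01 against 38.0 CPM) and the proteoglycan *Vcan* (57.9 against 331 CPM) were lower. The hyaluronan receptor *Cd44* stood at 379 against 237 CPM.

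Genes of fibrous tissue, bone and marrow stroma were mostly lower than in other mesenchymal cells. Of 23 collagens, 19 were lower and 2 higher, with a median log2 ratio of -2.30. *Col1a1*, a chain of the main collagen of bone and tendon, stood at 2025 against 23294 CPM, *Col1a2* at 978 against 17595 CPM and *Col3a1* at 3960 against 14251 CPM. The collagens together summed to 11848 CPM in *Prg4*-high cells and 11145 in reticular-gate cells, against 75473 in periosteal-gate cells. Against reticular-gate cells 6 of 20 collagens were higher and 5 lower, with a median of -0.40. Of 11 small leucine-rich proteoglycans 10 were lower, with a median of -2.31, while decorin (*Dcn*) stood at 10648 against 5479 CPM, within 2-fold. Of 33 matrix glycoproteins 20 were lower and 5 higher. Fibronectin (*Fn1*) was among the higher ones, at 23702 against 3010 CPM. Against reticular-gate cells, 4 of 10 small leucine-rich proteoglycans were higher and 2 lower. Of 30 matrix glycoproteins 15 were higher and 10 lower in that comparison.

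Of 10 osteoblast genes 9 were lower and none higher, with a median of -3.31, including *Ibsp*, a bone matrix sialoprotein (48.4 against 2154 CPM, 44.5-fold lower), and *Alpl*, the phosphatase of mineralizing cells (5.24 against 230 CPM, 43.9-fold lower). Of 12 reticular genes, which mark the marrow stroma that makes hematopoietic niche factors, 10 were lower and none higher, with a median of -4.33. The other mesenchymal cells included 306 reticular-gate cells, chosen for *Cxcl12* with *Adipoq* or *Lepr*. Without these, 6 reticular genes passed, of which 3 were lower and 1 higher, with a median of -0.85. Against chondrocyte-gate cells 3 of 5 were higher and 1 lower, with a median of 1.59. The adipokine *Adipoq* stood at 3.39 against 247 CPM, with its UMIs in 1 cell, and lipoprotein lipase (*Lpl*) at 12.3 against 641 CPM. Of 10 periosteal genes 7 were lower and *Ly6a*, the gene of the surface antigen Sca-1, was higher at 1628 against 608 CPM. *Postn* stood at 48.7 against 915 CPM and *Aspn* at 40.1 against 1148 CPM. The other mesenchymal cells included 800 periosteal-gate cells, which carried *Postn* and *Aspn* or *Ogn*. Against chondrocyte-gate cells 3 of 6 periosteal genes were higher and 3 lower, and against reticular-gate cells 2 of 7 were higher and 2 lower. Among genes with a mean CPM of at least 50 the lowest ratio was that of osteomodulin (*Omd*), at 1.23 against 130 CPM.

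The synovial sublining list differed from the lining list. Of its 8 genes that passed, 5 were lower, among them *Thy1* (4.62 against 48.4 CPM), *Cd34* (8.63 against 69.6 CPM) and *Col14a1* (41.0 against 396 CPM), and the median was -1.84. *Ly6a* was higher, and *Gsn* (1107 against 992 CPM) and *Dpt* (498 against 404 CPM) lay within 2-fold. Against periosteal-gate cells 5 of 8 were lower and 1 higher. In each of the comparisons with chondrocyte-gate and reticular-gate cells 6 passed and all were higher, with medians of 3.09 and 3.82. The 10 genes summed to 3556 CPM in *Prg4*-high cells, 3345 in other mesenchymal cells, 606 in chondrocyte-gate cells and 234 in reticular-gate cells, so their summed level was not low. Of 8 tendon and ligament genes 6 were lower, with a median of -2.12. *Tnxb*, the tenascin X gene, was the higher one at 165 against 80.4 CPM. The tendon and ligament list was also mostly lower against periosteal-gate cells (6 of 8) and chondrocyte-gate cells (4 of 6). Against reticular-gate cells all 5 of its genes that passed were higher, with a median of 5.46.

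**Figure D2:**
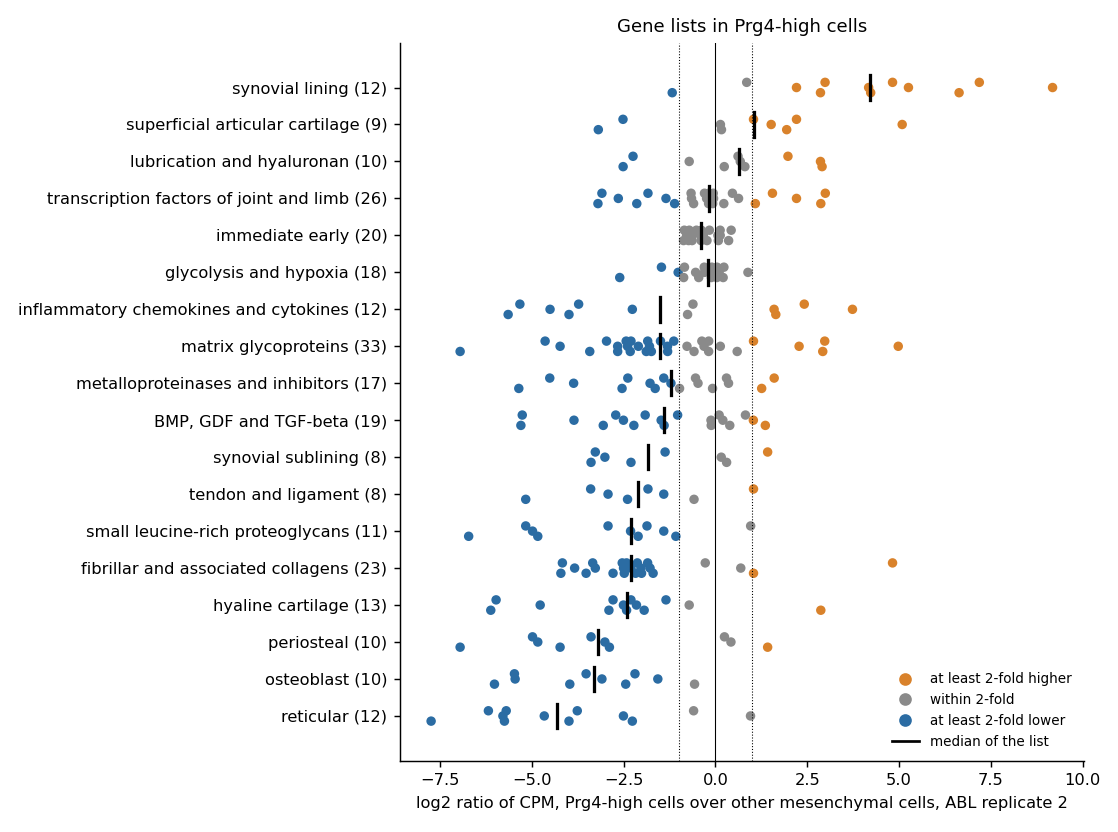
Log2 ratio of CPM, *Prg4*-high over other mesenchymal cells of ABL replicate 2, for each gene of each list that passed the level filter, with the list medians. The lining list has a median of 4.20 and the reticular list one of -4.33, against 0.03 over all genes.

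Regulators were mixed. Of 26 transcription factors of joint and limb, 5 were higher and 7 lower, with a median of -0.18. *Sox5*, a partner of Sox9 in cartilage (325 against 44.4 CPM), *Foxo1* (191 against 24.0 CPM), *Barx1* (223 against 75.9 CPM) and *Tbx15* (70.9 against 33.4 CPM) were higher with *Creb5*. The osteoblast regulator *Runx2* (7.70 against 65.7 CPM) and *Prrx2* (19.4 against 179 CPM) were lower. Of 12 inflammatory chemokines and cytokines 4 were higher, *Cxcl1* (1222 against 228 CPM), *Cxcl2*, *Il6* (61.6 against 19.7 CPM) and the scavenger receptor *Ackr3* (437 against 145 CPM), and 6 were lower, including *Ccl2* (13.9 against 184 CPM) and *Ccl7* (2.77 against 111 CPM). The median of that list was -1.51, and 0.46 when reticular-gate cells were left out of the comparison cells. All 20 immediate early genes, which respond to dissociation and other stress, lay within 2-fold of other mesenchymal cells, with a median of -0.39. They were less even against single gates. In the comparison with chondrocyte-gate cells 6 of 19 were higher and 0 lower, with a median of 0.67. In that with reticular-gate cells 2 of 20 were higher and 8 lower, with a median of -0.71.

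Of 17 genes of a list of metalloproteinases, other matrix proteases and protease inhibitors, 9 were lower and 2 higher. The collagenase *Mmp13* stood at 28.0 against 1149 CPM and the stromelysin *Mmp3* at 15.1 against 345 CPM. The secreted serine proteases *Htra1* (1701 against 711 CPM) and *Htra3* (537 against 177 CPM) were the higher ones, and no metalloproteinase was. Of 19 BMP, GDF and TGF-β genes 11 were lower and 2 higher, with *Ltbp3*, which binds latent TGF-β, at 390 against 152 CPM and *Inhba*, the activin A subunit, at 222 against 109 CPM. The median log2 ratio of that list was -1.40, and its sign turned at a mean CPM of at least 100. Of 8 Wnt genes 5 were lower, while *Rspo2*, an amplifier of Wnt signalling, stood at 159 against 20.7 CPM.

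Of 16 matricellular genes of injured tissue 12 were lower and 2 higher in *Prg4*-high cells, with a median of -2.26, and *Tnn*, which encodes tenascin W, stood at 16.0 against 400 CPM. Their summed level was higher, at 26583 against 11427 CPM, with *Fn1* giving 23702 CPM of the former. *Ctgf*, a target of YAP and TGF-β signalling, stood at 2224 against 293 CPM. Of 9 complement genes 7 were lower and 1 higher, with a median of -1.76. The direction depended on the comparison cells. Against chondrocyte-gate cells all 5 that passed were higher, with a median of 2.11. Against reticular-gate cells 8 of 9 were lower and 1 higher, with a median of -3.14. Of 18 glycolysis and hypoxia genes 3 were lower and none higher, with a median of -0.21, and *Vegfa*, which responds to low oxygen, was one of the lower genes at 16.0 against 97.7 CPM.

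Markers of other cells were mostly low. The 10 macrophage and monocyte genes summed to 29.9 CPM in *Prg4*-high cells and 35.0 in other mesenchymal cells, *Lyz2* giving 23.1 of the former, and *Adgre1* and *Cx3cr1* had no UMI, while *Ptprc* was at 0 by the rule. Neutrophil genes summed to 68.4 and 75.4 CPM. Endothelial genes summed to 4.01 and 20.1 CPM, with *Emcn* and *Kdr* at 0. Of the mural genes *Rgs5* was higher at 278 against 27.6 CPM and *Myh11* had no UMI, and of the Schwann cell genes *S100b* was at 105 against 36.6 CPM with *Sox10* at 0.

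The 196 cells fell into unlike sets. Cells with at least 10 UMIs of *Cilp* and *Cytl1* together, a rule chosen after the values were seen, numbered 17 (8.67%, 5.13 to 13.5%) and left 179. *Cilp* and *Cytl1* together gave 17 to 465 UMIs a cell in the 17, with a median of 154, and 0 to 8 in the 179, where 168 cells had none. *Clic5*, *Tspan15*, *Htra4* and *Col22a1* together had no UMI in 11 of the 17 cells, 1 to 9 in 5 and at least 10 in 1. Of the 179 cells, 148 had at least 10, 27 had 1 to 9 and 4 had none. The 1 cell high in both groups of genes had 36 *Clic5* and 232 *Cytl1* UMIs among 26030. Since *Cilp* and *Cytl1* defined the 17, their levels are a description.

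**Figure D3:**
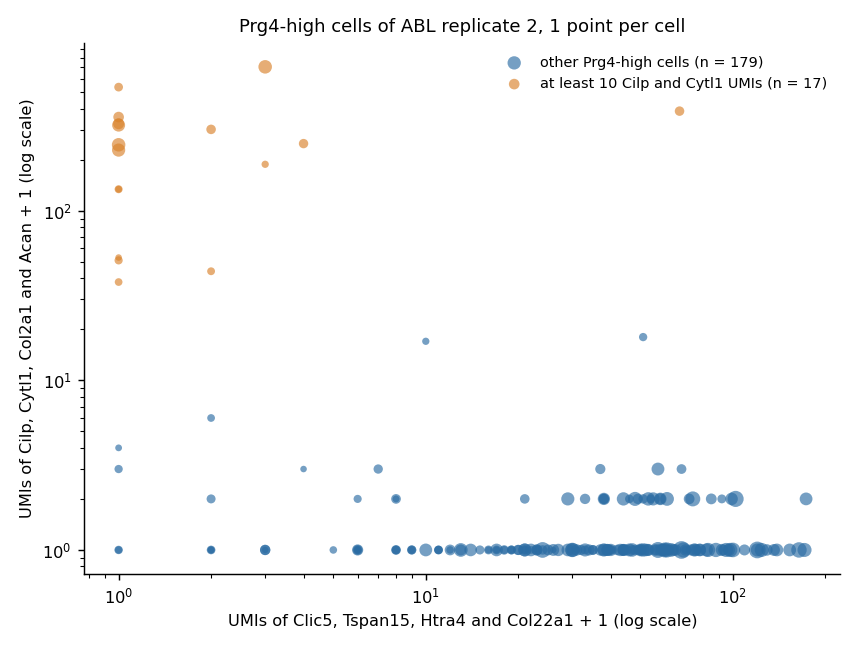
UMIs per cell, plus 1 and on log axes, of *Clic5*, *Tspan15*, *Htra4* and *Col22a1* together (horizontal) and of *Cilp*, *Cytl1*, *Col2a1* and *Acan* together (vertical), 1 point for each of the 196 *Prg4*-high cells of ABL replicate 2, with point size growing with the *Prg4* share. Of the 17 cells with at least 10 *Cilp* and *Cytl1* UMIs (orange), 1 lies far to the right, with the other 179 cells (blue) below them.

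Some genes of the superficial articular cartilage list were higher in the 17 cells. *Cilp2* stood at 866 CPM in the 17 and 2.6 in the 179, the transcription factor *Erg* at 103 against 1.3 CPM, *Vit* at 414 against 23.8 CPM and the joint growth factor *Gdf5*, with 7 UMIs in 5 cells, at 38.1 against 0.7 CPM. *Abi3bp* stood at 365 against 106 CPM, below the 689 CPM of other mesenchymal cells. *Dkk3* stood at 38.1 against 12.7 CPM, with overlapping intervals and below the 129 CPM of other mesenchymal cells, and *Scara3* at 561 against 466 CPM. *Creb5* (414 against 532 CPM) and *Tnxb* (98.0 against 169 CPM) stood lower in the 17, and *Crtac1* had no UMI in either set. Cartilage matrix genes were also present. *Col2a1*, the main collagen of cartilage, stood at 6387 CPM in the 17, 7.5 in the 179 and 28711 in the 64 chondrocyte-gate cells, and the proteoglycan *Acan* at 1116, 12.1 and 2752 CPM. Within the 17, *Col2a1* was uneven: 14 cells had a UMI, the median was 35, and 1 cell held 442 of its 1173 UMIs. *Col9a1* was at 32.7 CPM in the 17 against 1440 in the chondrocyte-gate cells, and *Matn3* had no UMI in the 17 against 909 CPM. *Mgp*, an inhibitor of calcification, stood at 21463 CPM in the 17 and 39.5 in the 179, *Chad* at 1759 against 1.6 CPM, and *Sox9*, the chondrocyte regulator, at 724 against 25.5 CPM.

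The 179 cells were higher in most lining genes. *Clic5* stood at 1280 CPM in them and 212 in the 17, *Has1* at 1284 against 196 CPM, and *Cd55* at 321 CPM against no UMI. *Tnfaip6* stood at 1416 against 81.7 CPM, *F13a1* at 1739 against 338 CPM and *Fn1* at 24722 against 6697 CPM. The cell high in both groups of genes held 36 of the 39 *Clic5* UMIs of the 17, 44 of the 62 *F13a1* UMIs, and all of those of *Tspan15*, *Col22a1* and *Sparcl1*. Without it *Clic5* had 3 UMIs in 1 of the remaining 16 cells and *F13a1* was at 114 CPM, while *Cytl1* was at 9338 CPM and *Col2a1* at 6744 CPM. *Hbegf* (2781 against 1868 CPM) and *Creb5* (532 against 414 CPM) differed less. *Areg*, *Ereg* and *Cxcl2* had no UMI in the 17. Median depth was 9772 UMIs in the 17 and 16439 in the 179, and median *Prg4* shares were 3.83 and 5.83%.

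The superficial cartilage list holds *Cilp* and *Cytl1*, so leaving out the 17 cells lowered it by construction. Of its 9 genes that passed, 5 were higher and 2 lower over all 196 cells, with a median log2 ratio of 1.04. The median was -1.74 without the 17 cells. With *Cilp* and *Cytl1* left out as well, 7 genes gave a median of 0.16 over the 196 cells and -0.78 without the 17. Of 13 hyaline cartilage genes 11 were lower over all 196 cells, with a median of -2.42. The other mesenchymal cells include the 64 chondrocyte-gate cells, and without those 8 genes passed, of which 4 were lower and 3 higher, with a median of -0.34. *Col2a1* then stood at 47.6 CPM in the comparison cells.

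**Figure D4:**
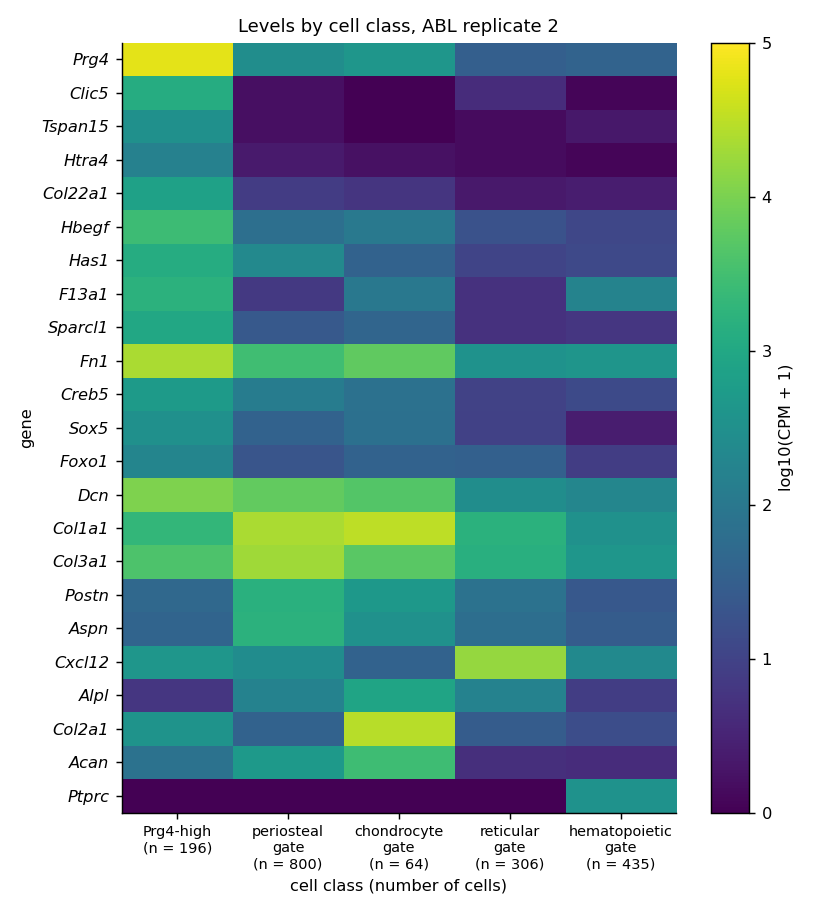
Colour gives log10(CPM + 1) of selected genes (rows) in 5 classes of cells of ABL replicate 2 (columns, with the number of cells). *Clic5* is at 1220 CPM in *Prg4*-high cells and has no UMI in the chondrocyte gate, while *Col1a1* is at 2025 and 31653 CPM in these classes.

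Among the 179 cells, levels differed along the *Prg4* share, which the rule used. From 17 cells at 1 to 2% through 39 at 2 to 4% to 123 at 4% or more, *Clic5* went from 119 to 650 to 1607 CPM, *Hbegf* from 767 to 1796 to 3314 CPM and *F13a1* from 506 to 1145 to 2064 CPM. *Creb5* went from 387 to 529 to 550.5 CPM. In the opposite direction, *Col1a2* went from 3041 to 1859 to 460 CPM, *Comp*, a matrix protein of cartilage and tendon, from 1020 to 404 to 34.2 CPM, and *Aspn* from 215 to 67.3 to 6.5 CPM. *Dcn* (9452, 9586 and 10429 CPM) and the tdTomato transcript (2266, 2066 and 2028 CPM) varied little.

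**Figure D5:**
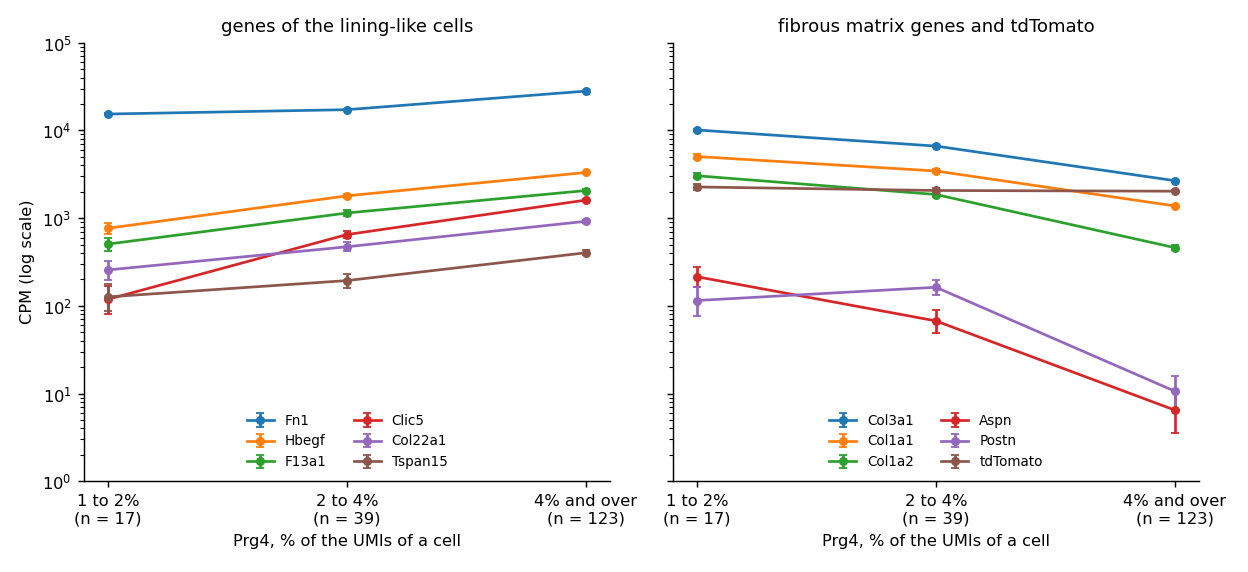
CPM with 95% exact Poisson intervals, on a log scale, in the 179 *Prg4*-high cells without the *Cilp* and *Cytl1* set, in bins of the *Prg4* share of 17, 39 and 123 cells. *Clic5* goes from 119 to 1607 CPM and *Aspn* from 215 to 6.5 CPM.

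Over the 196 cells, the genes whose share of UMIs was most like that of *Prg4* by Spearman correlation were *Clic5* (0.56), *Pcsk6* (0.56), *Fgl2* (0.53), *F13a1* (0.50), *Sparcl1* (0.49), *Chst2*, *Fn1* and *Ntn4* (0.48 each), *Hbegf* and *Col22a1* (0.45 each), among 2701 genes. Only genes with a UMI in at least 50% of these cells were compared. The collagen VI chains *Col6a2* (-0.60), *Col6a1* (-0.59) and *Col6a3* (-0.52) stood at the other end. All points come from 1 library, and the *Prg4* share correlated with UMIs per cell at 0.29. These are descriptions across cells.

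The tdTomato transcript was found in 194 of 196 cells, at 2046 CPM (1997 to 2096) against 1491 (1475 to 1508) in other mesenchymal cells. It was also at 886 CPM in the low-UMI droplets and had a UMI in 60.7% of hematopoietic-gate cells, at 363 CPM there, so detection alone does not show expression in a cell. The iCreER transcript, expressed from *Cxcl12* sequence, gave 203 UMIs in 64 cells (32.7%), or 62.6 CPM (54.3 to 71.8), against 3.92 CPM (3.12 to 4.85) in other mesenchymal cells and 1.92 in the low-UMI droplets. It was found in 62 of the 179 cells, at 62.7 CPM, and in 2 of the 17, where 9 of its 11 UMIs lay in 1 cell. *Cxcl12* itself stood at 418 against 2009 CPM. That lower level rested on the reticular-gate cells, which were chosen for *Cxcl12*, and the other mesenchymal cells without them gave 252 CPM (245 to 259) of *Cxcl12* and 3.89 CPM of iCreER. In other mesenchymal cells of the remaining libraries iCreER was at 23.4 CPM (CONT) and 8.76 CPM (ABL) in replicate 1 and at 17.2 CPM in the contralateral library of replicate 2.

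Against 800 periosteal-gate cells low in *Prg4*, which carried *Postn* and *Aspn* or *Ogn*, 325 of 5257 genes were at least 2-fold higher (6.18%) and 385 lower (7.32%), with a median log2 ratio of 0.05. The lining list had 10 of 12 genes higher and none lower, with a median of 4.54. *Clic5* stood at 0.638 CPM in the periosteal-gate cells. Of 23 collagens 17 were lower and 4 higher. *Mfap4*, *H19*, *C1qtnf3*, *Omd* and *Itgbl1* had the lowest ratios. *Msmp* was among the 10 highest, with 426 of its 448 UMIs in 1 cell.

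Against the 64 chondrocyte-gate cells, defined by *Col2a1* and *Acan*, 737 of 5096 genes were higher (14.5%) and 474 lower (9.3%). *Clic5* had no UMI in the chondrocyte-gate cells, and *Cxcl1* stood at 3.47 CPM there. Of the genes named above, *Col1a1* was at 31653 CPM in the chondrocyte-gate cells.

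The 2 cells of ABL replicate 1 had 15362 and 18669 UMIs and *Prg4* at 2.77 and 1.54%. In the former *Clic5* had 9 UMIs, *Tspan15* 4, *Htra4* 7 and *Col22a1* 12, and in the latter 1, 1, 1 and 2. *Fn1* had 263 and 199 UMIs and *F13a1* 42 and 24. Neither cell had a *Cilp* or *Cytl1* UMI. The iCreER transcript had 7 UMIs in the former and none in the latter.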

How the data were processed

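The deposited matrices hold raw UMI counts per gene and barcode, which the authors made from 10x Chromium libraries. Per the file headers, Cell Ranger 3.0.0 wrote those of replicate 2. Called cells had at least 500 genes, at most 20% mitochondrial UMIs and at least 2700 UMIs in replicate 1, and at least 1000 genes, at most 15% and at least 4000 UMIs in replicate 2. No doublet caller was run. Counts were summed over the cells of each class and divided by the class total (CPM), with 95% exact Poisson intervals. A gene with no UMI was put at 3 counts of the class total. Genes were compared where the mean of the CPM values was at least 20, and called at a 2-fold ratio. Gates are ranges of cells, not types. Named genes were the 25 highest and 15 lowest ratios at a mean CPM of at least 50, the 10 highest and 5 lowest against periosteal-gate cells, the 5 highest against chondrocyte-gate cells, the 10 most like *Prg4*, and list members with the largest or smallest values or that define their list. The members and lists were chosen with earlier results of these data known, and the set of 17 cells and the exclusions of haemoglobin-rich cells and of gates after values were seen. Calling was tested on simulated class totals without variation between cells, so that test does not cover genes whose UMIs lie in few cells. Python 3.11.15, numpy 2.4.6, scipy 1.17.1 and pandas 2.3.3 were used.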

Additional observations from a re-analysis of the deposited data

How the results depend on the processing

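For gene levels in *Prg4*-high cells, no paired analysis was possible because neither contralateral library held any such cell. For the share of these cells, the CONT and ABL libraries of a replicate were paired for a description only, without a test. In replicate 2 *Xist* in other mesenchymal cells stood at 797 CPM (CONT) and 0.0933 CPM (ABL). Whether these libraries came from the same mice was not tested. In that description, the share of *Prg4*-high cells, ABL minus CONT within a replicate, was 3.93 percentage points on average, and leaving out 1 replicate gave 0.139 to 7.71 points. The count of genes at least 2-fold higher and lower was 4417 and 2123 with no filter on low values and 114 and 133 at a mean CPM of at least 100. Of the 4417, 2853 had no UMI in *Prg4*-high cells and were put above 2-fold by the floor of 3 counts alone, since that floor is a higher CPM in the smaller class, so the unfiltered count says little about expression. Under the other settings it was 277 to 366 and 369 to 587. With cells thinned to 2000 UMIs, 235 of 366 higher and 360 of 587 lower genes were shared with the calls reported.

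Some directions turned. Without the 17 cells the superficial articular list had a median log2 ratio of -1.74, *Cytl1* was at -3.98 and *Cilp* at -4.48. At a mean CPM of at least 100 the BMP, GDF and TGF-β list was at 0.20 and the chemokine list at 1.60. With *Prg4* at 2% or more, without cells outside the mesenchymal gate and without haemoglobin-rich cells, in that order, the erythroid list was at -0.59, -0.62 and -0.58, *Hba-a2* at -1.44, -1.21 and -1.19, *Hbb-bs* at -0.59, -0.62 and -0.58, *Hba-a1* at -1.14, -1.07 and -1.04, and *Hbb-bt* at -0.52, -0.63 and -0.64. The log2 ratio of Msmp was -5.24 in the first of these settings, -2.44 in the next and -5.27 without the 17 cells. Leaving reticular-gate cells out of the comparison cells put the chemokine list at 0.46, *Vcam1* at 0.046 and *Cxcl12* at 0.73, and leaving out chondrocyte-gate cells put *Col2a1* at 2.95. The exclusions of gates from the comparison cells, of the 17 cells, of cells outside the gate and of haemoglobin-rich cells were chosen after seeing the data. Depth limits the 17 cells and the 2 cells of ABL replicate 1 more than all *Prg4*-high cells together, where a count of 3 is 0.925 CPM.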
